A study of Mus musculus with 6 samples.

Results

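Deoxynucleotide supply enzymes make the 4 DNA building blocks, and 8 genes for them were listed for description: Rrm1, Rrm2, Tyms, Tk1, Dut, Dck, Dctd and Dtymk. A probe set, a group of short probes read out as a single value, was assigned to a gene where the platform annotation gave it that gene symbol alone. This gave 17 probe sets for 7 of the 8 genes, out of 22626 probe sets and 12393 genes on the arrays. No probe set carried the symbol Dctd alone, so that gene, the deoxycytidylate deaminase, was not analysed here. The 3 probe sets for Tyms alone were among the dim ones left out of the gene test, and 6 of the 8 genes were tested among 9295.

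The samples were primary hepatocytes, the metabolic cells of the liver, from C57BL/6 wild type mice of 3 weeks, with no allele or drug other than the Hoechst DNA dye that all of them received. Fresh cells were sorted by dye content into a diploid and a tetraploid fraction, and total RNA of each was read on Affymetrix arrays, 3 per fraction. A diploid cell that has finished copying its DNA carries as much DNA as a resting tetraploid cell, and a sort on DNA content alone places both together. The replicates are named biological in the labels, which leave unsaid whether each came from its own animal or from pooled animals, so the spread behind every p-value is that between arrays and could be partly technical.

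Ribonucleotide reductase turns ribonucleoside diphosphates into deoxyribonucleoside diphosphates, thymidylate is made from dUMP or recovered from thymidine, and kinases then add phosphate groups. Cells that copy their nuclear DNA need large pools of these precursors, and several of the enzymes are known to be made mainly around S phase through the E2F transcription factors. Resting cells, which include most adult hepatocytes, keep smaller pools for repair and for mitochondrial DNA, with separate enzymes such as Rrm2b, Tk2 and Dguok.

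The promoters of the 4 genes with the largest differences between the fractions are printed because these genes had lower means together on the tetraploid arrays. Each run is the 250 bases before a start site in the RefSeq table of GRCm38.p6, 5′ to 3′ on the gene's strand. Capitals mark the short E2F core letters (TCCCGC or TGGCGC) and CCAAT, the letters bound by NF-Y, on either strand.
Rrm2: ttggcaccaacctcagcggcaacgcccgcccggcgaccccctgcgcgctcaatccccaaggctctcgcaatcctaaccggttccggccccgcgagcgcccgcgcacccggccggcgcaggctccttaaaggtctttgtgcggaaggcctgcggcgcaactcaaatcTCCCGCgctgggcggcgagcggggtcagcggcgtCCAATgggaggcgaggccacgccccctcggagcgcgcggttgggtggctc
Rrm1: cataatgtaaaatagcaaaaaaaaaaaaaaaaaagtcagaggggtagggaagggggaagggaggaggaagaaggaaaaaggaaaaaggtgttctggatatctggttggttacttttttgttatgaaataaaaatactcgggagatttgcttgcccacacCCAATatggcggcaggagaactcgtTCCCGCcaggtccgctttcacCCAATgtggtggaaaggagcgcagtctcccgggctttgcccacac
Tk1: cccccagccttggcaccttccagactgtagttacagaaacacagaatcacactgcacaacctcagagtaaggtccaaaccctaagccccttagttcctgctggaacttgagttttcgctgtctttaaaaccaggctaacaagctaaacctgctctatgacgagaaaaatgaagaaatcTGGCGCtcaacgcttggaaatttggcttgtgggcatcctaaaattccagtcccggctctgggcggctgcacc
Dck: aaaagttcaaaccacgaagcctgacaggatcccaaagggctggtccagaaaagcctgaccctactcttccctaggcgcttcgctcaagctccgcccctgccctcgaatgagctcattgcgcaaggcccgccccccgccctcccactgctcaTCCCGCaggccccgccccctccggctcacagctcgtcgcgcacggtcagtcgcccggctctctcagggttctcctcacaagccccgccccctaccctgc
These windows are chr12:24708004-24708253, forward strand, for Rrm2, chr7:102441445-102441694, forward strand, for Rrm1, chr11:117826015-117826264, reverse strand, for Tk1, and chr5:88764763-88765012, forward strand, for Dck.

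The E2F core letters lay 84 to 79 bases before the start in Rrm2, 66 to 61 in Rrm1, 72 to 67 in Tk1 and 99 to 94 in Dck. Of the 7 genes with a probe set, 6 had such a match in the window, all but Tyms. The letters occur in 23.4% of all 32851 promoter windows of this length and in 38.3% of the 9633 windows of tested genes. The longer forms TTTCCCGC, TTTGGCGC, TTTCGCGC and TTTGCCGC, some of which contain the core, were in the window of 0 of the 7 genes, and in 1.86% of all windows and 3.23% of those of tested genes. CCAAT was found for 3 of 7, Rrm1, Rrm2 and Dtymk (33.8% of all windows and 35% of those of tested genes). The Sp1 letters GGGCGG were found for 5 of 7 (32.7% of all windows and 56% of those of tested genes). The cell cycle homology letters TTTGAA or TTCGAA were found only for Dck among the 7 (17.1% of all windows and 12.3% of those of tested genes). These motif letters were chosen after the windows had been read, both strands were searched, and a match describes letters and not a bound site.

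Every one of the 6 tested genes had a lower mean level on the tetraploid than on the diploid arrays, and none passed the test over all genes. By limma with Benjamini-Hochberg adjustment, 0 of 9295 genes (0%) passed an adjusted p of 0.05, and 0 of the 6. At an unadjusted p under 0.05, 5 of the 6 were lower, against 3.85% of all genes tested, and in 4 of the 6 the 3 tetraploid values all lay below the 3 diploid values, against 7.08% of all genes. A lower mean by itself was common, at 52.2% of all genes. The median log2 difference, tetraploid minus diploid, was -0.50 over the 6 genes and -0.006 over all genes tested. Less transcript in each cell and fewer cells that make the transcript cannot be told apart in such bulk samples. The authors equalised the arrays, so each difference is relative to the other transcripts of its array.

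**Figure D1:**
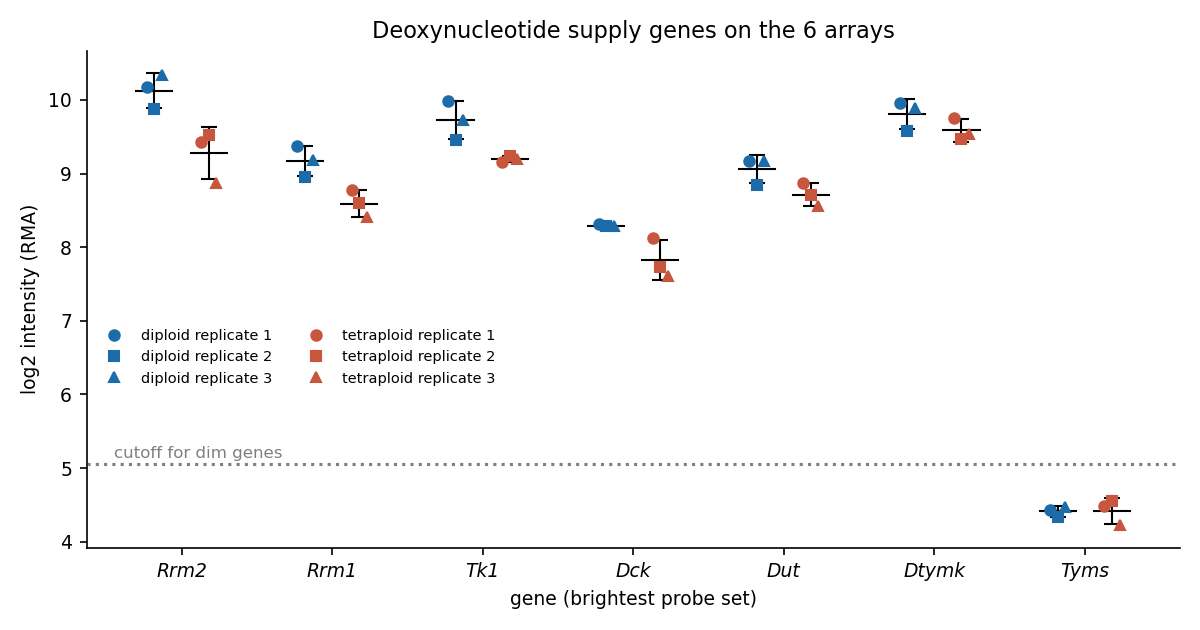
Log2 RMA intensity of the brightest probe set of each of the 7 genes (x axis) on the 6 arrays, blue for diploid and red for tetraploid, with a symbol per replicate number, and black bars for the mean and SD of 3 arrays. The fractions do not overlap for Rrm2, Rrm1, Tk1 and Dck, overlap for Dut and Dtymk, and Tyms lies under the dotted cutoff for dim genes at 5.06.

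Rrm2 encodes the small subunit of ribonucleotide reductase, which holds the radical that the reaction needs. Its brightest probe set read log2 intensities of 10.17, 9.87 and 10.33 on diploid replicates 1 to 3 and 9.42, 9.53 and 8.88 on tetraploid replicates 1 to 3. The lowest diploid value exceeded the highest tetraploid value, and tetraploid replicate 3 was lowest of all. The log2 difference was -0.85 ± 0.19 (SE, n = 3 per fraction), a 1.80-fold lower level, with a 95% interval from -1.29 to -0.41 and a limma adjusted p of 0.376. Only 0.172% of the genes tested had a lower difference. This probe set is of the _x_at kind, which can match several transcripts. The other 2 for Rrm2 differed by -0.71 and -0.60, also with fractions that did not overlap.

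Rrm1 encodes the large subunit, which carries the catalytic site. It read 9.37, 8.95 and 9.18 in diploid and 8.77, 8.60 and 8.41 in tetraploid cells. All 3 tetraploid arrays were below all 3 diploid arrays. The log2 difference was -0.58 ± 0.13 (SE, n = 3 per fraction), 1.49-fold lower, with an interval from -0.89 to -0.27 and a limma adjusted p of 0.387. A second, dimmer probe set differed by -0.35, and its fractions overlapped through tetraploid replicate 2 at 7.66, which lay above diploid replicate 2 at 7.58.

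Tk1, the cytosolic thymidine kinase that recovers thymidine, had a single probe set. It read 9.98, 9.46 and 9.73 in diploid and 9.16, 9.24 and 9.20 in tetraploid cells. The tetraploid arrays lay close together, with an SD of 0.040 against 0.26 in diploid cells, and all were below the diploid arrays. The log2 difference was -0.53 ± 0.13 (SE, n = 3 per fraction), 1.44-fold lower, with an interval from -0.82 to -0.23 and a limma adjusted p of 0.412.

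Dck, the deoxycytidine kinase, phosphorylates salvaged deoxycytidine and purine deoxynucleosides. Its brightest probe set read 8.32, 8.28 and 8.28 in diploid and 8.13, 7.73 and 7.61 in tetraploid cells. Here the diploid arrays were the tight group, with an SD of 0.020 against 0.27, and tetraploid replicate 1 was the tetraploid array closest to them. The log2 difference was -0.47 ± 0.13 (SE, n = 3 per fraction), 1.39-fold lower, with an interval from -0.78 to -0.17 and a limma adjusted p of 0.553. The 2 dimmer probe sets both differed by -0.29, with overlapping fractions.

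Dut and Dtymk, which like Tk1 serve thymidylate supply, had smaller differences than the genes above, and this contrast was not tested. Dut, the dUTPase, keeps uracil out of DNA and provides dUMP for thymidylate synthesis. Its brighter probe set read 9.17, 8.84 and 9.17 in diploid and 8.87, 8.71 and 8.56 in tetraploid cells. The overlap came from diploid replicate 2, which lay just under tetraploid replicate 1. The log2 difference was -0.35 ± 0.12 (SE, n = 3 per fraction), with an interval from -0.63 to -0.06, a limma unadjusted p of 0.0232 and an adjusted p of 0.757. The dimmer second probe set, at a mean log2 intensity of 5.83, differed by -0.24.

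Dtymk, the thymidylate kinase, converts dTMP to dTDP and is shared by synthesis and salvage. It read 9.95, 9.58 and 9.89 in diploid and 9.76, 9.47 and 9.53 in tetraploid cells. Diploid replicate 2 lay below tetraploid replicate 1, so the fractions overlapped. The log2 difference was -0.22 ± 0.12 (SE, n = 3 per fraction), and its interval from -0.51 to 0.07 included 0, with a limma adjusted p of 0.843. It was -0.34 without diploid replicate 2. The other 2 probe sets differed by -0.32 and -0.19, both with overlap.

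Tyms, the thymidylate synthase that methylates dUMP, could not be read well from its own probe sets. They had mean log2 intensities of 4.42, 4.38 and 3.94, under the cutoff of 5.06 for dim genes, and differed by 0.01, -0.004 and -0.09, all with overlap. A brighter probe set, at 9.45, is annotated to both Tyms and its pseudogene Tyms-ps and so fell outside the selection. It read 9.76, 9.36 and 9.69 in diploid and 9.45, 9.29 and 9.14 in tetraploid cells. Diploid replicate 2 again lay below tetraploid replicate 1, and the log2 difference was -0.31 ± 0.13 (SE, n = 3 per fraction). Which of the 2 genes gave this signal cannot be told apart.

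**Figure D2:**
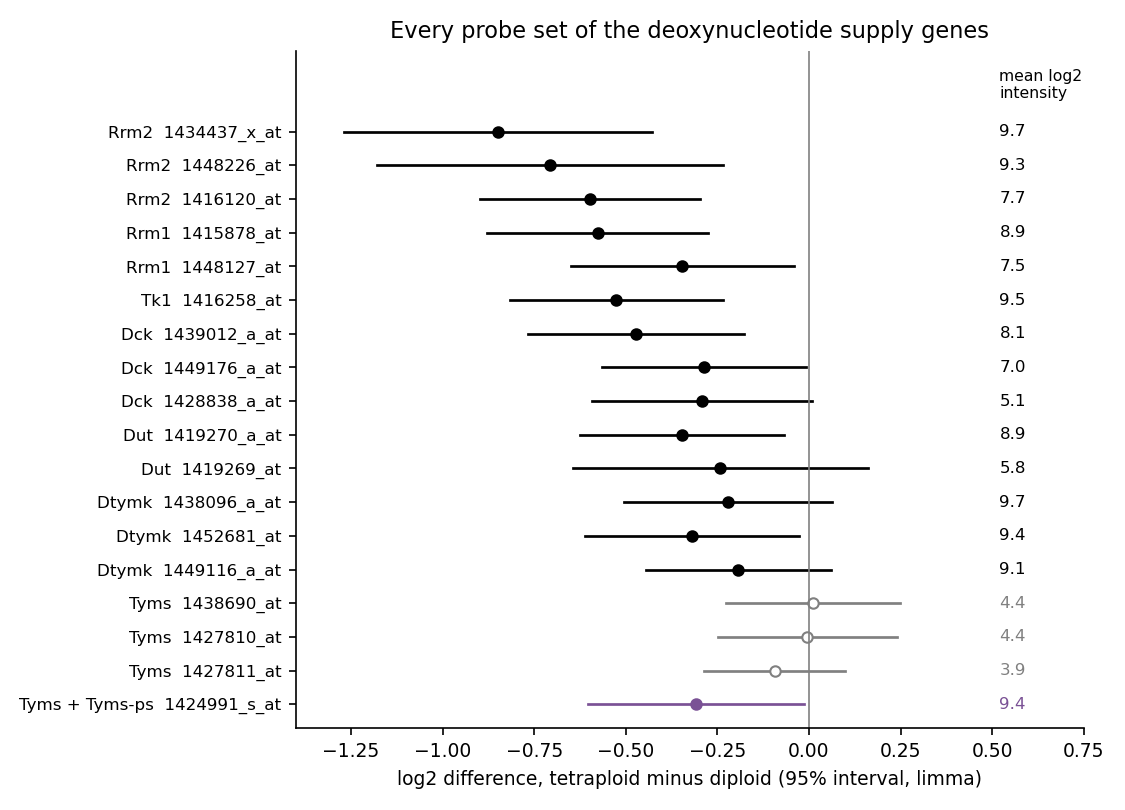
Log2 difference, tetraploid minus diploid, with the 95% limma interval (x axis) for each of the 17 probe sets and, in purple, the probe set shared by Tyms and Tyms-ps. The mean log2 intensity stands at the right, open grey points mark dim probe sets, and the 14 probe sets that are not dim all lie left of 0.

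Over the 17 probe sets, 16 were lower on average on the tetraploid arrays, against 51.9% of all 22626 probe sets. Among them 10 were lower at an unadjusted limma p under 0.05, against 3.55% of all probe sets, 6 had tetraploid values all below the diploid values, against 6.77%, and 0 passed an adjusted p of 0.05, against 0%. The count of 10 was 6 without diploid replicate 3 and 6 without tetraploid replicate 3. Probe sets of a gene read the same RNA and are not independent of each other.

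The genes did not share 1 pattern over the arrays. Averaged over the 6 tested genes, the log2 value minus its mean over all arrays was 0.38, 0.05 and 0.32 on diploid replicates 1 to 3 and -0.10, -0.24 and -0.42 on tetraploid replicates 1 to 3. Diploid replicate 2 was the lowest diploid array and tetraploid replicate 3 the lowest of all. Rrm1 lay closest to this average, with a root mean square difference of 0.056 over the 6 arrays, and Rrm2 farthest, at 0.23. All 3 Rrm2 probe sets were highest on diploid replicate 3 and tetraploid replicate 2 within their fractions. Among the tetraploid arrays, every probe set of Dck, Dut and Dtymk was instead highest on replicate 1.

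The array order of Rrm2 was that of the mean over the G2 and mitosis genes, but not of every gene among them. The mean of 23 such genes, centred in the same way, was 0.008, -0.31 and 0.30 on diploid replicates 1 to 3 and 0.007, 0.28 and -0.29 on tetraploid replicates 1 to 3. Its fractions overlapped widely, and 0 of the 23 genes had an unadjusted limma p under 0.05. Of the 17 probe sets, 4 followed this order in both fractions, the 3 for Rrm2 and a dim one for Tyms. The share of all probe sets on the arrays with this order was not counted. Every probe set of Rrm1 and Dut had the same lowest arrays, diploid replicate 2 and tetraploid replicate 3, but not the full order. The part that these mitotic genes have in the Rrm2 difference was not tested.

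**Figure D3:**
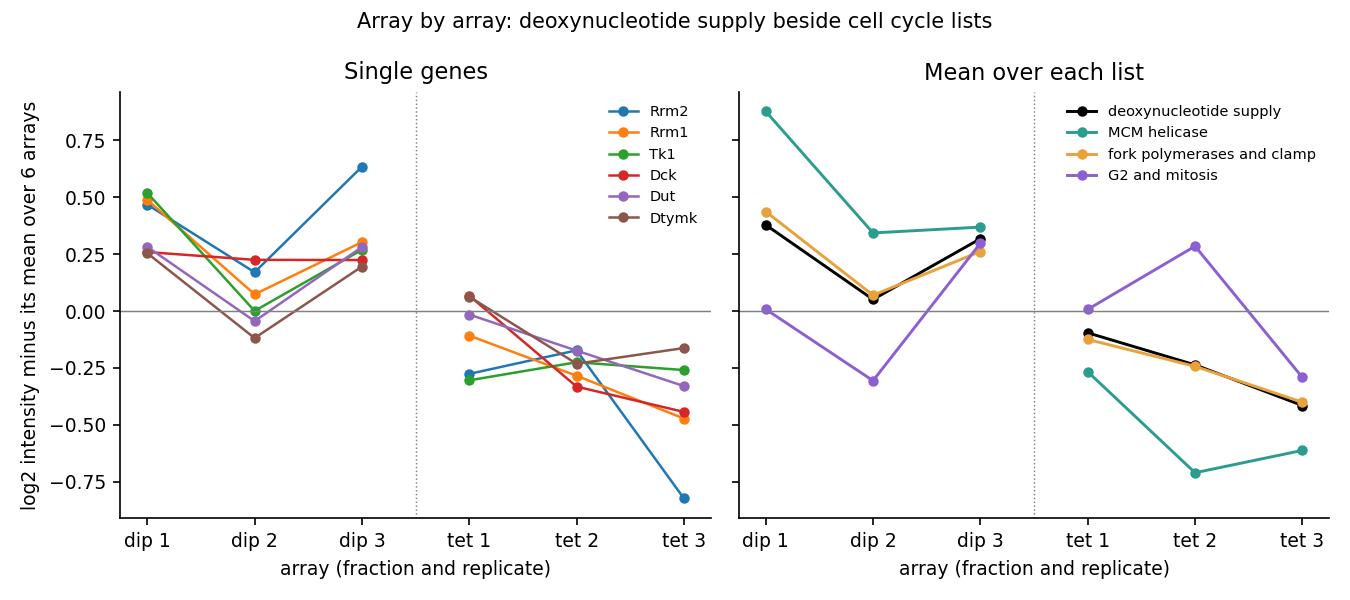
Log2 intensity minus its mean over the 6 arrays (y axis) by array (x axis, dip for diploid and tet for tetraploid), for the 6 tested genes at left and for the mean of each list at right. Lines join the values of a gene or list within a fraction and imply no order of replicates. The deoxynucleotide supply mean stays above 0 on the diploid arrays and below 0 on the tetraploid arrays, while the G2 and mitosis mean has a high and a low array in each fraction.

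Beside other replication genes, the sizes were as follows. The 6 subunits of the MCM helicase, which unwinds DNA at the fork, had a median log2 difference of -1.05, from -1.41 to -0.72, and in all 6 the fractions did not overlap. The 17 fork polymerase, primase, clamp and ligase genes had a median of -0.52, from -0.84 to -0.21, and 14 did not overlap. The mean of these 17, centred as above, was 0.44, 0.07 and 0.26 on diploid replicates 1 to 3. On tetraploid replicates 1 to 3 it was -0.12, -0.24 and -0.40, the same array order in each fraction as the deoxynucleotide supply mean. The 6 deoxynucleotide supply genes, from -0.85 to -0.22, spanned nearly the range of the fork genes. Differences between these groups were not tested, and 0 genes of any of them passed an adjusted limma p of 0.05.

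Counterparts that serve mitochondria and resting cells had differences of either sign. Rrm2b, the p53-induced small subunit that replaces Rrm2 outside S phase, read 6.37, 6.27 and 6.53 in diploid and 6.40, 6.70 and 6.70 in tetraploid cells. Tetraploid replicate 1 lay among the diploid values, and the log2 difference was 0.21 ± 0.11. Tk2, the mitochondrial thymidine kinase, differed by 0.13 ± 0.11, and Dguok, the mitochondrial deoxyguanosine kinase, by -0.11 ± 0.07 (SE, n = 3 per fraction), the latter without overlap. Of 8 tested genes of this kind, 5 had a higher and 3 a lower mean, with a median of 0.03, and 0 had an unadjusted limma p under 0.05.

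The balance between such related enzymes was compared within arrays. The log2 ratio of Rrm2 to Rrm2b was lower in tetraploid than in diploid cells by a log2 amount of -1.06 ± 0.27 (SE, n = 3 per fraction), and that of Tk1 to Tk2 by -0.66 ± 0.21. In both pairs all 3 tetraploid ratios lay below all 3 diploid ratios, and each had an exact two-sided permutation p of 0.1, the smallest that 3 arrays against 3 allow, and 0.15 after adjustment over the 3 pairs compared. The ratio of Dck to Dguok differed by -0.36 ± 0.19, with overlap through tetraploid replicate 1, and an exact permutation p of 0.2, also 0.2 after adjustment. This last difference was -0.21 without tetraploid replicate 3, -0.53 without tetraploid replicate 1, and -0.24 with all probe sets of each gene averaged.

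**Figure D4:**
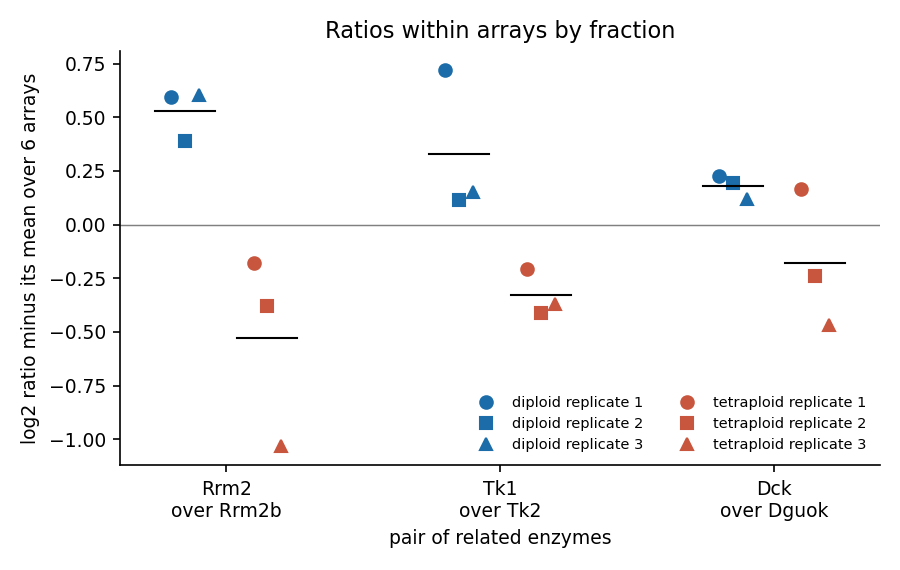
Log2 ratio of 2 related enzymes on an array, minus its mean over the 6 arrays (y axis), for the 3 pairs (x axis), blue for diploid and red for tetraploid, with a symbol per replicate number and black lines for the means of 3 arrays. The tetraploid ratios lie below the diploid ratios for Rrm2 over Rrm2b and Tk1 over Tk2, and overlap for Dck over Dguok.

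The wider nucleotide pathway showed small differences. Over 9 lists with 88 genes, 67 were tested, of which 42 had a lower and 25 a higher mean, with a median log2 difference of -0.03. At an unadjusted limma p under 0.05, 5 of the 67 were lower, against 3.85% of all genes, and 1 was higher, against 2.32%, and 0 passed an adjusted p of 0.05. The count of 5 was 1 without diploid replicate 1 or without tetraploid replicate 2, 2 without tetraploid replicate 1, and 3 without diploid replicate 2. The count of 1 was 2 without diploid replicate 3 or without tetraploid replicate 1. Tetraploid values were all below diploid values for 9 of the 67, against 7.08% of all genes, and all above for 2, against 5.22%.

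Genes for the ribonucleotide precursors had medians near 0, and some single genes were lower. Of 10 tested purine synthesis genes, 7 had a lower mean, with a median of -0.06. Gart, which carries out 3 steps of purine ring assembly, differed by -0.34 ± 0.14, but its other 2 probe sets differed by 0.18 and 0.03. Adssl1, an adenylosuccinate synthetase, differed by -0.21 ± 0.08, and Impdh1, which leads to guanine nucleotides, by -0.13 ± 0.08 (SE, n = 3 per fraction). Of 9 pyrimidine synthesis genes, 5 had a lower and 4 a higher mean, with a median of -0.02. Ctps, the CTP synthase, differed by -0.23 ± 0.09, Umps, which makes UMP, by -0.10 ± 0.09, and Uckl1, a uridine kinase homologue, by 0.09 ± 0.07. In these lists 2 of 10 purine genes, Gart and Adssl1, and 1 of 9 pyrimidine genes, Ctps, were lower at an unadjusted limma p under 0.05. Of all genes tested, 3.85% were.

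The folate cycle gives thymidylate synthase its methyl group. Of 10 tested folate and one-carbon genes, 8 had a lower mean, with a median of -0.09, and 0 had an unadjusted limma p under 0.05. Mthfd2, the mitochondrial methylene-tetrahydrofolate dehydrogenase, differed by -0.29 ± 0.14, Ftcd, a formiminotransferase of histidine breakdown, by -0.14 ± 0.06, and Shmt2, the mitochondrial serine hydroxymethyltransferase, by -0.14 ± 0.08 (SE, n = 3 per fraction). On these probe sets the fractions did not overlap for Ftcd and Shmt2 and overlapped for Mthfd2. Other Shmt2 probe sets differed by -0.05, with overlap, and by -0.16 and -0.10, without. A dim second probe set for Mthfd2 differed by -0.35, without overlap.

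The diphosphate kinases, which add the last phosphate, had a median of -0.04 over 5 tested genes, and enzymes that break down or clean the dNTP pool one of -0.07 over 5. Nme4, a mitochondrial nucleoside diphosphate kinase, differed by -0.26 ± 0.08 and was the 1 of 5 genes of its list with an unadjusted limma p under 0.05, while Nme2 and Nme6 differed by -0.05 ± 0.07 and 0.05 ± 0.09 (SE, n = 3 per fraction). Dctpp1, which destroys dCTP and its modified forms, differed by -0.18 ± 0.07, the 1 of 5 in its list. Samhd1, the dNTP hydrolase that keeps pools low in resting cells, differed by -0.07 ± 0.07, and its other 3 probe sets by -0.05, -0.12 and -0.12. Nudt1, which clears oxidised purine nucleotides, differed by -0.07 ± 0.10.

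Nucleoside breakdown held the 1 gene of the 67 that was higher at an unadjusted limma p under 0.05. Gda, the guanine deaminase, read 5.90, 5.92 and 5.66 in diploid and 6.35, 6.32 and 6.29 in tetraploid cells. All tetraploid arrays lay above all diploid arrays, at a difference of 0.50 ± 0.09 (SE, n = 3 per fraction) with a limma adjusted p of 0.234, on a probe set of the _s_at kind that can match several transcripts. Xdh, the xanthine dehydrogenase, differed by -0.17 ± 0.09 and Upp1, a uridine phosphorylase, by 0.19 ± 0.15. The 7 tested thioredoxin and glutaredoxin genes, which pass electrons to the reductase, had a median of -0.03, with Txn2 at -0.14 ± 0.09, Glrx at -0.09 ± 0.09 and Glrx2 at 0.06 ± 0.09. The 3 tested nucleoside transporters differed by -0.13 ± 0.09 for Slc29a3, -0.08 ± 0.22 for Slc29a1 and -0.02 ± 0.14 for Slc29a2.

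**Figure D5:**
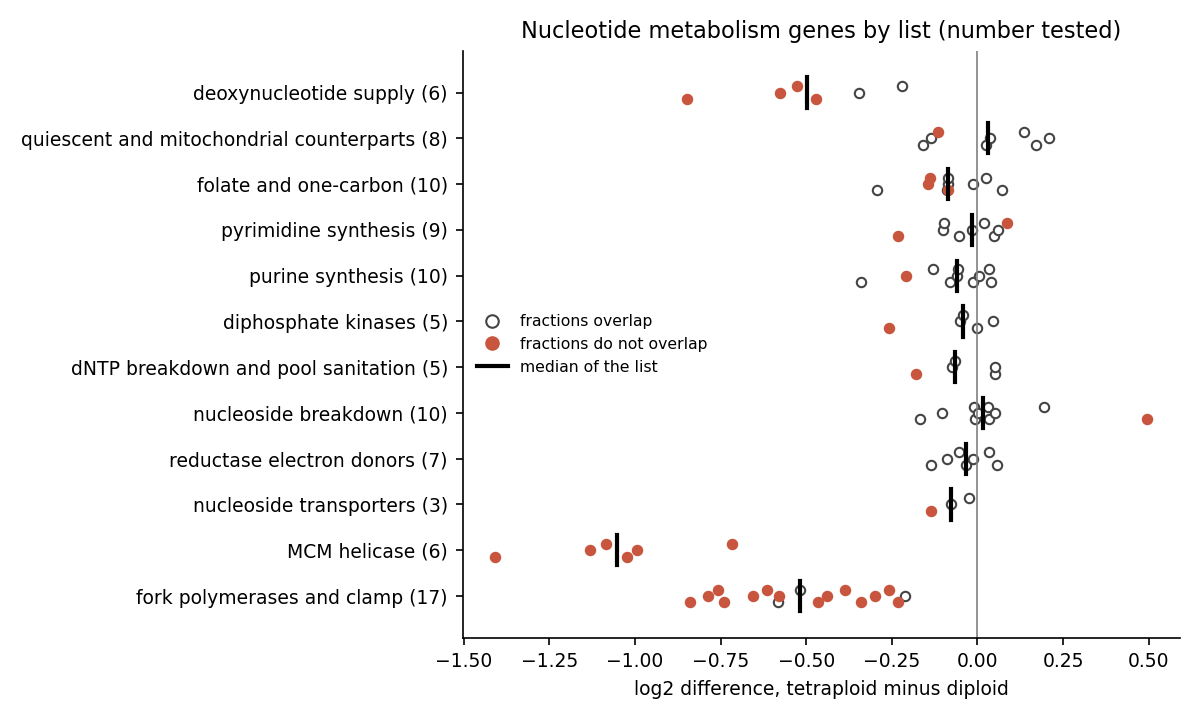
Log2 difference, tetraploid minus diploid (x axis), of each tested gene by list (y axis, number tested in brackets), with red points where the fractions do not overlap, open points where they do, and a black bar for the median of the list. The deoxynucleotide supply median is at -0.50, while the 9 other lists of nucleotide metabolism have medians between -0.09 and 0.03.

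The genes whose array profile was most like the average of the 6 were Syce2, Slbp, Cenpk, Hat1, Ncaph, Orc6, Dnajc9 and Brca2. Likeness was the root mean square difference, over the 6 arrays, between a gene's centred log2 values and that average. It was 0.041 for Syce2, a synaptonemal complex gene, 0.050 for Slbp, which binds histone mRNA, and between 0.059 and 0.082 for the other 6, against a median of 0.30 over the 9289 other genes. Hat1, a histone acetyltransferase, differed by -0.60 ± 0.14 and Brca2, of homologous recombination, by -0.43 ± 0.11 (SE, n = 3 per fraction). This likeness uses the same arrays as the differences and describes them only.

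The labelled cell type was checked against marker genes. All 8 hepatocyte markers were bright, with mean log2 intensities from 12.67 for Hnf4a to 15.57 for Alb. Markers of other liver and blood cells were much dimmer than these, but not all were near the cutoff of 5.06. The brightest were Reln of stellate cells at 8.83 and Fcgr2b of endothelial cells at 8.19. The cutoff was exceeded by 6 of 8 endothelial and 6 of 8 macrophage markers. Of 7 lymphocyte markers with a probe set only Cd3e, at 5.97, exceeded it, while Ptprc was at 4.23 and Cd79a at 4.99. Yet 6 of these 7 had a lower mean in tetraploid cells, against 55.5% of the 12393 genes, dim ones included. In 4 of the 7 all tetraploid values lay below all diploid values, against 7.43%. Their summed intensity was 208 to 221 on diploid and 182 to 200.4 on tetraploid arrays. Of 5 cholangiocyte markers 4 were lower, with sums of 174.7 to 197 and 169 to 174.9. Of 8 endothelial markers 6 were higher, with sums of 865 to 969.9 and 945 to 1109. Lower means were seen for 6 of 8 macrophage, 5 of 7 granulocyte, 4 of 7 stellate and 3 of 7 erythroid markers. Only the lymphocyte sums did not overlap between the fractions, and the cholangiocyte, endothelial, macrophage, stellate, erythroid, granulocyte and hepatocyte sums did. The part of such cells in the differences above was not tested.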

How the data were processed

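Total RNA of 6 samples was hybridised to Affymetrix arrays, 3 for each fraction, with groups and replicate numbers taken from the sample titles. The deposited values are linear intensities, 1 for each array and probe set, made by the authors with RMA per the submitters' processing notes. RMA corrects background, equalises the arrays and summarises probes, so differences in total RNA per cell are not kept. Its version is not given in the sources used here. Array medians ran from 85.9 to 88.7, and the number of arrays limits the precision (median SE of a log2 difference 0.095).

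Intensities were converted to log2, and 64 of 22690 probe sets were left out as controls. The platform annotation gave 1 symbol to 20380 probe sets, several to 691 and none to 1555. For each gene the probe set with the highest mean was used, and genes whose mean log2 value was in the lowest 25% (under 5.06) were then dropped, which left 9295. Fractions were compared with limma 3.58.1 in R 4.3.3 (lmFit, eBayes, two-sided), adjusted by Benjamini-Hochberg over all genes. Probe set values come from a second such fit on all 22626. Ratios within arrays were compared by an exact permutation test. The gene test was also run on simulated data with known changes in 200 of 9295 genes. There it recovered 98.1% of 2-fold and 83.6% of 1.5-fold changes. These rates may not hold for the real arrays. On them Mcm5 was 2.65-fold lower, with an SE of 0.22 against the median of 0.095, at a limma adjusted p of 0.211.

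The genes, lists, marker sets and tests were chosen with earlier results of these data known. Of each other pathway list the 3 genes with the smallest p were named, with Rrm2b, Tk2, Dguok and Samhd1 always, and the 8 genes nearest in profile; a further gene of this rule is not reported here. Alternatives covered the filter, the choice of probe set, normalization, a pseudocount of 32, the variance model, array weights, a replicate block and each array left out.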

Additional observations from a re-analysis of the deposited data

How the results depend on the processing

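Under all 17 alternatives run for the gene test, the 6 tested genes kept a lower mean in tetraploid cells (102 of 102 differences) and 0 of them passed an adjusted limma p of 0.05. The filters, probe sets as separate rows, the variance model and the replicate block cannot change these differences, so part of the 102 was fixed in advance. The number at an unadjusted p under 0.05 ran from 4 to 6, the number without overlap from 3 to 6, and the median difference from -0.57 to -0.41 over 19 alternatives. The count of 6 without overlap arose only without diploid replicate 2 or without tetraploid replicate 1, and fewer arrays separate more easily. With Tyms added through the probe set shared with Tyms-ps, a choice made after seeing the data, the median was -0.47. Rrm2 ranged from -0.98 to -0.65, Rrm1 from -0.68 to -0.46, Tk1 from -0.66 to -0.40, Dck from -0.62 to -0.35, Dut from -0.45 to -0.27 and Dtymk from -0.34 to -0.15. The 3 ratios kept their direction in 11 of 11 alternatives each, of which centring the arrays on the median cannot change a ratio within an array.

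The count of all genes called, 0, became 9 with the replicate block and ran from 0 to 1 with an array left out, the 1 without tetraploid replicate 1. The block called 0 of the 6 genes. The labels do not say whether replicate numbers pair the samples. The deviations of same-numbered arrays from their fraction means correlated at 0.57, -0.20 and -0.20 over genes. Tetraploid replicates 2 and 3 were most like diploid replicates 3 and 2, at 0.69 and 0.38. Deviations within a fraction depend on each other, so these correlations cannot settle the pairing. No fit was made on the matching by likeness, which comes from the data.

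Of the other pathway genes, the 5 that were lower at an unadjusted p became 3 with array weights and ran from 1 to 5 with an array left out. The 1 that was higher became 0 with the stricter filter on dim genes and 0 without probe sets that can match several transcripts, both of which leave out the Gda probe set, and ran from 1 to 2 with an array left out. The 10 probe sets lower at an unadjusted p ran from 6 to 12 with an array left out. These pathway and probe set counts under alternatives were added after seeing the data. Dim probe sets, such as those of Tyms alone, lie near background, where differences are compressed.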
